A study of Mus musculus with 12 samples.

Results

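The Kcnq1 imprinted domain was examined as 8 neighbouring genes of mouse chromosome 7, namely Kcnq1ot1, Kcnq1, Cdkn1c, Phlda2, Slc22a18, Ascl2, Cd81 and Tssc4. Every probe set that carried 1 of these symbols in the platform annotation was taken, which gave 16 probe sets of the 45037 on the array without controls. All 8 genes were represented, and 14 of the 16 probe sets passed the filter on dim signals and were tested, among 30027 probe sets in all. The 2 that did not pass are weak Kcnq1ot1 probe sets. The samples were mouse embryonic stem (ES) cells in 4 groups of 3 biological replicates. Double deficient cells had been made by targeting Ring1B in cells that already lacked Eed, so they carry both mutations. Eed deficient cells and Ring1B deficient cells each carry a mutation made by gene targeting, and the wild type cells carry neither. The labels name no second line of any genotype and no age or treatment, so a difference between genotypes cannot be told apart from a difference between lines. Nothing in the labels says that replicates were separate derivations, and the p values measure the spread between these arrays.

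Genomic imprinting leaves a gene active on only the copy from a given parent. In this domain the long noncoding RNA Kcnq1ot1 is made from the paternal copy, antisense to Kcnq1 and from a promoter inside that gene, and it silences protein-coding neighbours on the same chromosome. On the maternal copy the promoter is methylated in DNA, the RNA is not made and the neighbours are expressed. Cdkn1c, Phlda2, Slc22a18 and Kcnq1 are imprinted in the embryo and the placenta, while Ascl2, Cd81 and Tssc4 are known for imprinting in the placenta. Polycomb complexes mark the silent paternal copy there: PRC2, of which Eed is a core subunit, methylates lysine 27 of histone H3, and PRC1, of which Ring1B (gene Rnf2) is the ubiquitin ligase, modifies histone H2A. The arrays measured total RNA of both copies and do not separate the parental alleles.

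Signals are MAS5 intensities on a linear scale with a trimmed mean of 100 on every array. The 40th percentile of an array, used here as the mark of a dim probe set, lay between 12.1 and 19.1. The brightest Eed probe set averaged 71.2 ± 21.0 in double deficient, 37.8 ± 13.1 in Eed deficient, 1642 ± 283 in Ring1B deficient and 1428 ± 159 in wild type cells (SD, n = 3). The brightest Rnf2 probe set averaged 383 ± 18.8, 779 ± 168, 468 ± 65.7 and 851 ± 124 in the same order. A dimmer Rnf2 probe set ran the other way, at 38.5 ± 3.8, 22.3 ± 3.23, 60.2 ± 8.27 and 29.9 ± 7.02, and which part of the gene each probe set reads was not analysed here. ES cell markers were bright in every group, with Pou5f1 averaging 1550.3 in double deficient, 1887 in Eed deficient, 2447 in Ring1B deficient and 2735 in wild type cells. Their summed signal over 8 genes ran from 14320 to 16192 in double deficient, 16264 to 19224 in Eed deficient, 18409 to 20546 in Ring1B deficient and 19870 to 20675 in wild type cells. Of these 8, 4 were lower in double deficient, 1 in Eed deficient and 0 in Ring1B deficient cells against wild type (limma adjusted p under 0.05). Against Ring1B deficient cells, 3 were lower in double deficient cells. Counted with 1 probe set per gene, 30.8%, 15.3% and 7.19% of all genes were called either way in double, Eed and Ring1B deficient cells against wild type. Between double and Ring1B deficient cells the share was 18.7%.

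Upstream sequences are shown for the members with a called probe set in double deficient cells against wild type. Slc22a18 is included only through its dim probe set, which passed the filter through the other genotypes. Its brighter probe set was not called. The sequences cover 250 bases before to 50 bases after the annotated start, from RefSeq on build GRCm38.p6, which held 6 of the 8 members. Kcnq1 and Cdkn1c were not among them. The capitals mark CCAAT, or ATTGG where the motif lies on the other strand.
Kcnq1ot1, chr7:143296498-143296797, minus strand: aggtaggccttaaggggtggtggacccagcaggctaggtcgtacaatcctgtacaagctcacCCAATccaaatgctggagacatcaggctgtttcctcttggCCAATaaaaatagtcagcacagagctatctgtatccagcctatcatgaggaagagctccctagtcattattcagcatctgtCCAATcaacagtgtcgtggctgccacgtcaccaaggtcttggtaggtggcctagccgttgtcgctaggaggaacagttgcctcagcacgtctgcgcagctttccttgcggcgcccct
Slc22a18, chr7:143473539-143473838, plus strand: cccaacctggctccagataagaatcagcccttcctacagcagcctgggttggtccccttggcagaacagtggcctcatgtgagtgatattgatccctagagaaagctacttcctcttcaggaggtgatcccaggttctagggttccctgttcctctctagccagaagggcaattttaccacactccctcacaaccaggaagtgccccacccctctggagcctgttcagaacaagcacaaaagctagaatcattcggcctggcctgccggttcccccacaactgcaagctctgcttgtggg
Phlda2, chr7:143502475-143502774, minus strand: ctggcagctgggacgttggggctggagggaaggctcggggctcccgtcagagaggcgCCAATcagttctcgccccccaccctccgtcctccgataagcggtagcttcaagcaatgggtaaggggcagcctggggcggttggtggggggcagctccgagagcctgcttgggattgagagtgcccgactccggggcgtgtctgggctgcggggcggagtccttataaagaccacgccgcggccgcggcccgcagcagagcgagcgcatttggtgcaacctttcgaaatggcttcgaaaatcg

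The Kcnq1ot1 stretch held 3 copies of CCAAT and 9 CpG dinucleotides. At least 3 copies, on either strand, occurred in 3.37% of the 32851 promoters of that length in the table, and at least 1 in 37.4%. Ascl2 also had 3 copies, Phlda2 and Tssc4 had 1 each, and Slc22a18 and Cd81 had 0. CpG counts divided the members in another way, with 26 in Phlda2, 23 each in Ascl2, Cd81 and Tssc4, and 2 in Slc22a18, against a median of 7 over all promoters. A motif match describes these letters only. The arrays measured no binding or methylation at these stretches.

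Kcnq1ot1 rose in double deficient cells, and neither single mutant had a called change against wild type. Its brightest probe set, 1457781_at, gave 206, 189 and 133 in double deficient cells, 83.3, 94.1 and 106 in Eed deficient cells, 100.4, 80.5 and 127 in Ring1B deficient cells and 101, 93.8 and 102 in wild type cells. All 3 double deficient arrays lay above all 9 others, and the other 3 genotypes overlapped. The log2 change in double deficient cells against wild type was 0.78 (SE 0.19, limma adjusted p = 0.00996). In Eed deficient cells it was -0.07 (SE 0.19) and in Ring1B deficient cells 0.03 (SE 0.19), with adjusted p of 0.874 and 0.966.

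The other bright Kcnq1ot1 probe sets were also highest in double deficient cells, while the order of the other 3 genotypes differed between probe sets. Probe set 1458161_at gave 117, 97.3 and 105 in double deficient cells, 53.7, 56.0 and 77.9 in Eed deficient cells, 61.3, 44.9 and 74.5 in Ring1B deficient cells and 75.4, 73.0 and 70.7 in wild type cells. The double deficient arrays again lay above all 9 others, with a log2 difference from wild type of 0.51 (SE 0.19) that was not called (adjusted p = 0.0662). Probe set 1442029_at had the largest difference and the largest spread, with 219.9, 120.2 and 106 in double deficient cells, 26.2, 13.0 and 74.4 in Eed deficient cells, 41.6, 11.6 and 96.1 in Ring1B deficient cells and 41.1, 30.2 and 34.0 in wild type cells. Its log2 change against wild type was 1.87 (SE 0.57, adjusted p = 0.0272), and replicate 3 of each single mutant stood well above replicates 1 and 2 of the same genotype.

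The remaining Kcnq1ot1 probe sets were dim. Probe set 1441588_at averaged 14 ± 7.71 in double deficient, 12.1 ± 4.21 in Eed deficient, 7.77 ± 5.07 in Ring1B deficient and 7.42 ± 5.16 in wild type cells (SD, n = 3), with 4 of 12 arrays above the 40th percentile and overlap between all genotypes. The 2 probe sets that failed the filter, 1459443_at and 1446255_at, had 0 of 12 arrays above that percentile and signals of at most 8.09 and 5.65. The transcript lies inside Kcnq1 on the opposite strand, and which stretch and strand each probe set reads was not analysed here.

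**Figure D1:**
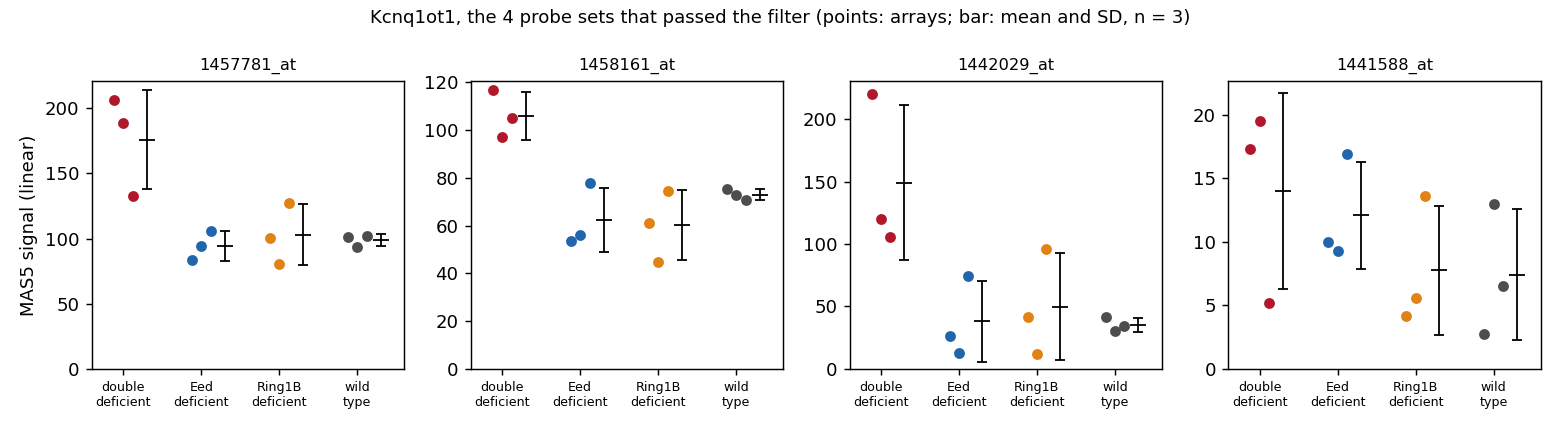
MAS5 signal of the 4 Kcnq1ot1 probe sets that passed the filter, by genotype, with each array as a point and the mean and SD of 3 arrays as a bar. In the 3 brighter probe sets the double deficient arrays (133 to 206, 97.3 to 117 and 106 to 219.9) lie above all others, and in 1441588_at the genotypes overlap.

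The rise of Kcnq1ot1 in double deficient cells was of like size against each single mutant. In the main fit, which did not use the replicate number, it passed the threshold only against Ring1B deficient cells, and there not for every probe set. Against Ring1B deficient cells the log2 change was 0.75 (SE 0.19, adjusted p = 0.0212) for 1457781_at and 0.79 (SE 0.19, adjusted p = 0.014) for 1458161_at, while 1442029_at had 1.77 (SE 0.57, adjusted p = 0.0524). Against Eed deficient cells the same 3 probe sets differed by 0.85, 0.74 and 2.04 in log2, with adjusted p of 0.0505, 0.0751 and 0.0955, and no arrays overlapped. The unadjusted limma p was 0.000657, 0.0017 and 0.00285 against Eed deficient cells, and 0.00175, 0.000933 and 0.00738 against Ring1B deficient cells. The adjustment was stricter against Eed deficient cells, where 383 probe sets were called, than against Ring1B deficient cells, where 4109 were. With the replicate number as a block, an alternative fit, all 3 were called against Eed deficient cells (limma adjusted p = 0.0156, 0.0183 and 0.0102). In that fit 1442029_at was also called against Ring1B deficient cells (0.00611). These contrasts share the double deficient arrays and are not separate observations. The interaction, which is the difference between double deficient and Eed deficient cells minus the difference between Ring1B deficient and wild type cells, was 0.82 (SE 0.28), 1.02 (SE 0.27) and 1.94 (SE 0.80) for the 3 probe sets and was not called in the main fit (adjusted p = 0.189, 0.0936 and 0.283). With the block, 1458161_at was called in it (0.0213).

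Several Kcnq1ot1 calls were lost when 1 array was left out, while the log2 changes kept their sign. Without double deficient replicate 1 the log2 change against wild type was 0.66 for 1457781_at and 1.56 for 1442029_at. For 1442029_at it was 1.99 without double deficient replicate 2, 1.78 without wild type replicate 2 and 1.86 without wild type replicate 3. Without double deficient replicate 1 the adjusted p against wild type was 0.0524 for 1457781_at and 0.105 for 1442029_at, and 1442029_at was also not called without double deficient replicate 2 (0.0521), wild type replicate 2 (0.0683) or wild type replicate 3 (0.0724). Probe set 1458161_at was called against wild type without Ring1B deficient replicate 2 (0.043). Against Ring1B deficient cells, 1457781_at was not called without Ring1B deficient replicate 1 (0.0503) or 2 (0.0828) or double deficient replicate 1 (0.0943) or 2 (0.0708), and 1458161_at without Ring1B deficient replicate 2 (0.0594) or double deficient replicate 1 (0.0608). Probe set 1442029_at was called against Ring1B deficient cells without Ring1B deficient replicate 3 (0.0198) or Eed deficient replicate 2 (0.0333) or 3 (0.0332). Against Eed deficient cells, calls appeared without Ring1B deficient replicate 2 for 1457781_at (0.0415) and 1442029_at (0.0432), and without Eed deficient replicate 3 for 1458161_at (0.0471) and 1442029_at (0.0351). Centring the arrays on their medians gave 1457781_at a log2 change of 0.53 against wild type (adjusted p = 0.0758), a scaling that put the median of all probe sets at -0.16 in double deficient cells against wild type, where it was 0.09 without it. Against Ring1B deficient cells the same scaling gave 0.50 for 1457781_at (adjusted p = 0.121) and 0.54 for 1458161_at (0.0585), so that no Kcnq1ot1 probe set was called there.

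Cdkn1c, which encodes the cyclin-dependent kinase inhibitor p57 and restrains growth, moved in another genotype. Its only probe set gave 256, 234 and 262 in double deficient cells, 323, 332 and 262 in Eed deficient cells, 553, 378 and 427 in Ring1B deficient cells and 259, 173 and 175 in wild type cells. All 3 Ring1B deficient arrays lay above all 9 others, and the double deficient arrays overlapped with wild type. The log2 change in Ring1B deficient cells was 1.15 (SE 0.18, adjusted p = 0.00219). In Eed deficient cells the log2 difference was 0.60 (SE 0.18, adjusted p = 0.0531) with no overlap between arrays, and it was called without wild type replicate 1 (adjusted p = 0.0164), Ring1B deficient replicate 1 (0.0439) or Ring1B deficient replicate 2 (0.0462). In double deficient cells it was 0.32 (SE 0.18, adjusted p = 0.226).

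Ring1B loss went with different changes of Cdkn1c on the 2 backgrounds. In cells that lacked Eed, double deficient cells averaged 250.3 ± 14.7 and Eed deficient cells 305 ± 38.2 (SD, n = 3), a log2 difference of -0.28 (SE 0.18, adjusted p = 0.4995). In cells with Eed, Ring1B deficient cells averaged 453 ± 90.6 and wild type cells 203 ± 49.3. The interaction was -1.42 (SE 0.26, adjusted p = 0.0171), and Cdkn1c was the only 1 of 14 member probe sets called in it, against 1.05% of all probe sets, 0.639% lower and 0.406% higher. Without double deficient replicate 3 the interaction was not called (adjusted p = 0.0547). Cdkn1c fell in double deficient cells relative to Ring1B deficient cells by 0.83 in log2 (SE 0.18, adjusted p = 0.00979). In order of level, Ring1B deficient cells came before Eed deficient, double deficient and wild type cells, and the neighbours in that order did not differ in a called way, with adjusted p of 0.141 for Eed deficient against Ring1B deficient cells.

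At the end of the domain, Phlda2 fell in double deficient cells, and of the 2 probe sets of its neighbour Slc22a18 only the dim one was called lower. Phlda2, which encodes a small pleckstrin homology domain protein that limits placental growth, gave 542, 434 and 463 in double deficient cells, 834, 588 and 917 in Eed deficient cells, 1048, 543 and 733 in Ring1B deficient cells and 941, 646 and 738 in wild type cells. The highest double deficient array lay just below the lowest of the others. The log2 change against wild type was -0.67 (SE 0.23, adjusted p = 0.0434). The differences from Eed deficient cells (-0.68, SE 0.23) and Ring1B deficient cells (-0.64, SE 0.23) were of like size and were not called (adjusted p = 0.162 and 0.0756). The single mutants lay close to wild type in mean, at 779 ± 171 in Eed deficient, 775 ± 255 in Ring1B deficient and 775 ± 151 in wild type cells (SD, n = 3). The Phlda2 call against wild type was lost without wild type replicate 1 (adjusted p = 0.149), wild type replicate 3 (0.0871), Ring1B deficient replicate 3 (0.0568), or double deficient replicate 1 (0.0569), 2 (0.122) or 3 (0.116), and the difference from Ring1B deficient cells was called without Ring1B deficient replicate 2 (0.0241).

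Slc22a18, a transporter of the solute carrier family, had 2 probe sets that differed in size of change. The dim probe set 1417809_at gave 1.05, 1.82 and 2.84 in double deficient cells, 24.1, 13.0 and 13.7 in Eed deficient cells, 22.1, 32.6 and 19.7 in Ring1B deficient cells and 3.85, 35.2 and 15.8 in wild type cells. The double deficient arrays lay below all others and below the 40th percentile of their arrays, where a fold is poorly measured. The log2 change was -1.51 (SE 0.43, adjusted p = 0.0194) against wild type and -2.09 (SE 0.43, adjusted p = 0.00577) against Ring1B deficient cells. This probe set had 6 of 12 arrays above the 40th percentile and passed the filter through the other genotypes. The brighter probe set 1427531_a_at gave 32.4, 30.1 and 28.8 in double deficient cells, 38.3, 45.9 and 47.8 in Eed deficient cells, 39.0, 46.5 and 34.8 in Ring1B deficient cells and 18.4, 47.3 and 48.3 in wild type cells, with a log2 difference of -0.18 (SE 0.26, adjusted p = 0.652) against wild type. Wild type replicate 1 was the lowest wild type array in both probe sets. Without it 1427531_a_at was called lower in double deficient cells (log2 change -0.58, adjusted p = 0.0393). Probe set 1417809_at differed from Eed deficient cells by -1.64 in log2 (adjusted p = 0.0753) and was called there without wild type replicate 1 (0.0212) or 2 (0.0369). Its interaction of -2.23 (adjusted p = 0.101) was called without wild type replicate 2 (0.0257). The call of 1417809_at against wild type was lost without wild type replicate 2 (adjusted p = 0.0815), wild type replicate 3 (0.0615) or double deficient replicate 1 (0.0606).

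Kcnq1, a potassium channel subunit of heart and epithelia, stayed dim. It gave 23.5, 17.1 and 36.4 in double deficient cells, 25.1, 22.1 and 20.7 in Eed deficient cells, 17.4, 17.5 and 17.2 in Ring1B deficient cells and 8.48, 19.3 and 13.9 in wild type cells. The group means were ordered from double deficient to wild type, but the arrays of double deficient and wild type cells overlapped, and the log2 differences of 0.69, 0.59 and 0.28 (SE 0.26 each) in double, Eed and Ring1B deficient cells against wild type were not called (adjusted p = 0.0669, 0.177 and 0.659). The Eed deficient arrays lay just above those of wild type. The double deficient difference was called without wild type replicate 2 (adjusted p = 0.0318) or double deficient replicate 2 (0.0329).

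The members known for imprinting in the placenta had no called change in any of the 6 pairwise contrasts. Tssc4 gave 164, 149 and 139.9 in double deficient cells, 129.9, 88.5 and 127 in Eed deficient cells, 114, 109 and 118 in Ring1B deficient cells and 126, 109 and 93.4 in wild type cells. The double deficient arrays lay above all 9 others, by a log2 difference from wild type of 0.45 (SE 0.17) that was not called (adjusted p = 0.0711) and that was called without Eed deficient replicate 2 (0.0452). Cd81, a tetraspanin of the cell surface, was the brightest member, with 1368 ± 183 in double deficient, 1294 ± 342 in Eed deficient, 1448 ± 455 in Ring1B deficient and 1439 ± 399 in wild type cells (SD, n = 3), and its log2 differences from wild type were -0.05, -0.15 and 0.00 (SE 0.23 each). Ascl2, a transcription factor required for the trophoblast, averaged 47.2 ± 13.5, 51.8 ± 19.2, 51.4 ± 21.3 and 42.5 ± 19.2 on its brightest probe set in the same order. Probe set 1432018_at averaged 24.1 ± 12.7, 28.5 ± 8.23, 30.9 ± 11.1 and 28.2 ± 13.6 in that order, and the arrays of all genotypes overlapped. The 3 Ascl2 probe sets had log2 differences from wild type between -0.20 and 0.28 in the 3 mutants, with SE from 0.31 to 0.38.

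**Figure D2:**
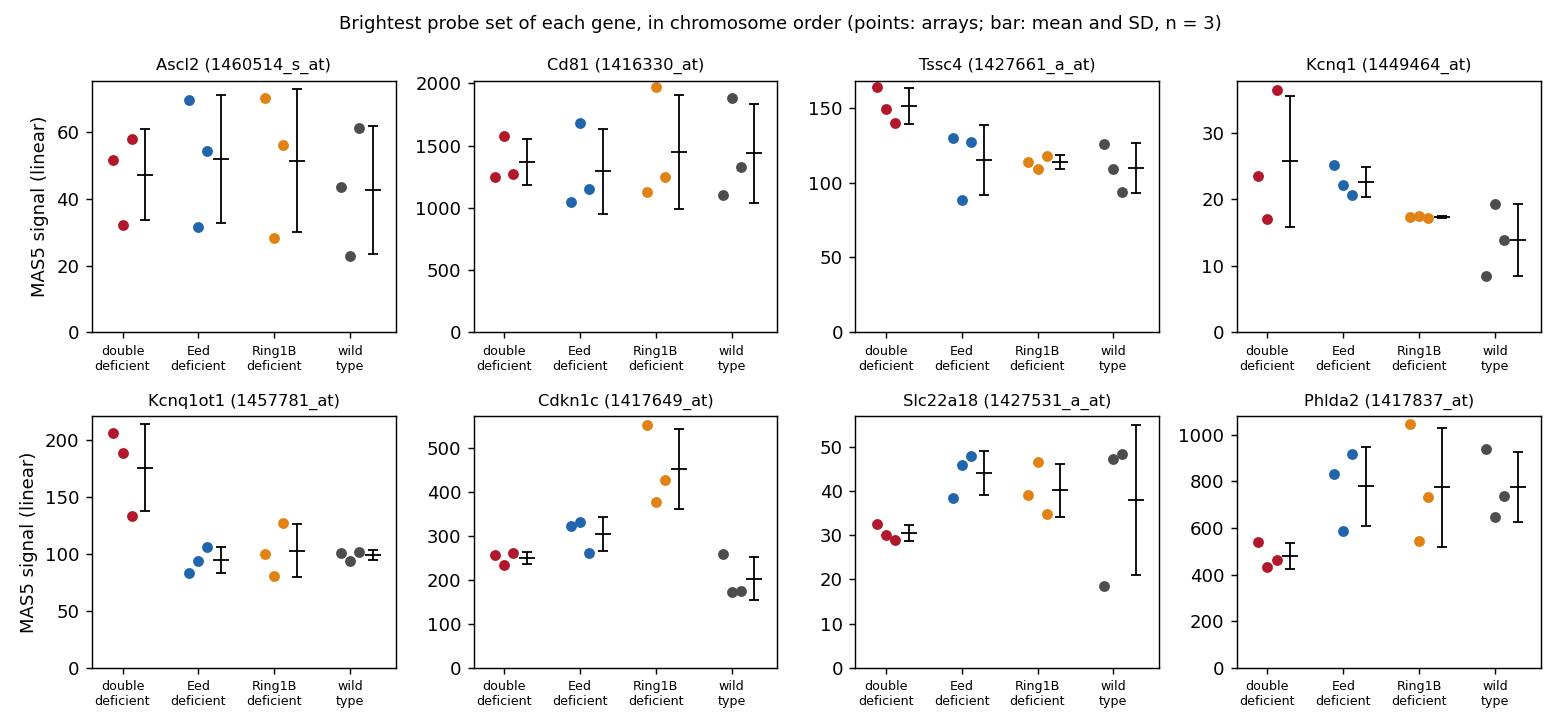
MAS5 signal of the brightest probe set of each gene by genotype, in chromosome order from Ascl2 to Phlda2, with each array as a point and the mean and SD of 3 arrays as a bar. Kcnq1ot1 is high in double deficient cells (133 to 206), Cdkn1c in Ring1B deficient cells (378 to 553), and Phlda2 is low in double deficient cells (434 to 542).

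Counted over the 14 probe sets tested, 2 rose and 2 fell in double deficient cells against wild type, which is 28.6% beside 23.9% of all probe sets called in that contrast. The rises were both of Kcnq1ot1, and the falls were of Phlda2 and of the dim Slc22a18 probe set 1417809_at, which passed the filter only through the other genotypes. Of all probe sets, 15.2% were higher and 8.71% lower. In cells deficient for Ring1B, 1 of 14 rose and 0 fell, beside 4.5% of all probe sets, 2.91% higher and 1.59% lower. In Eed deficient cells limma called 0 of 14, beside 10.8% of all probe sets, and 2 were at an unadjusted p under 0.05, beside 24.8% of all probe sets. The share for the domain was near the background in double deficient cells. The direction of calls over all probe sets depended on scaling: 63.6% of them were higher in double deficient cells against wild type, 49.5% after quantile normalization and 31.8% after median centring, and against Ring1B deficient cells 69.3%, 52.7% and 29.5%. Against Ring1B deficient cells double deficient cells had 2 higher and 2 lower of 14, beside 13.7% (9.48% higher and 4.2% lower). The higher ones were both of Kcnq1ot1. The lower ones were Cdkn1c and again Slc22a18 probe set 1417809_at, which passed the filter only through the other genotypes. Against Eed deficient cells limma called 0 in double deficient cells, beside 1.28%, and 6 were at an unadjusted p under 0.05, beside 16% of all probe sets. Eed deficient against Ring1B deficient cells had 0 calls by limma, beside 2.84%, and 1 was at an unadjusted p under 0.05, beside 15.6%. The median log2 change over the 14 was 0.26 in double deficient, 0.11 in Eed deficient and 0.08 in Ring1B deficient cells against wild type, where the medians over all probe sets were 0.09, 0.00 and -0.02. The arrays did not overlap between double deficient and wild type cells in 6 of 14, beside 40.7% of all probe sets, and between double deficient and Eed deficient cells in 7 of 14, beside 23.1%. The count was 8 of 14 between double deficient and Ring1B deficient cells, beside 35.1%, and 2 of 14 between Eed deficient and Ring1B deficient cells, beside 19.6%. Between Eed deficient and wild type cells it was 2 of 14, beside 27%, and between Ring1B deficient and wild type cells 1 of 14, beside 19.9%. These counts take probe sets of the same gene as separate members. Against each single mutant, those of double deficient cells hold several Kcnq1ot1 probe sets and both Slc22a18 probe sets, 1417809_at included. The others are Phlda2 and Tssc4, and against Ring1B deficient cells also Cdkn1c.

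**Figure D3:**
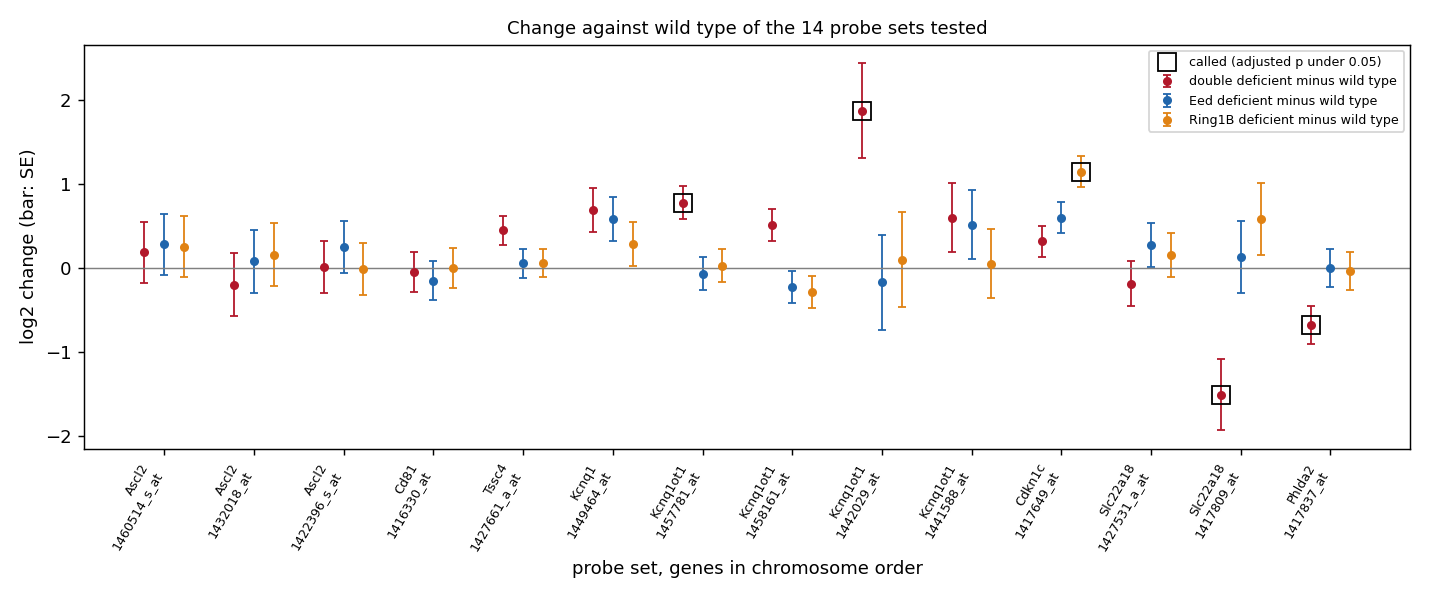
Log2 change of each of the 14 probe sets in double, Eed and Ring1B deficient cells minus wild type, with the SE as a bar and called changes boxed. The boxes lie at 2 Kcnq1ot1 probe sets above 0 (0.78 and 1.87) and at Slc22a18 (-1.51) and Phlda2 (-0.67) below 0 for double deficient cells, and at Cdkn1c (1.15) for Ring1B deficient cells.

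Kcnq1ot1 and Phlda2 differed in opposite directions in double deficient cells, which can be read within each array and then does not depend on how arrays were scaled. This difference was chosen after its values were seen and is given without a test. The log2 signal of Kcnq1ot1 minus that of Phlda2 was -1.37, -1.18 and -1.76 in double deficient cells, -3.25, -2.58 and -3.05 in Eed deficient cells, -3.32, -2.68 and -2.48 in Ring1B deficient cells and -3.16, -2.72 and -2.79 in wild type cells. The 3 double deficient values lay above all 9 others, and the other genotypes overlapped. The size on a given array has no meaning of its own, because different probe sets bind with different strength. Set against Cd81 in the same way, Kcnq1ot1 averaged -2.94 ± 0.33 in double deficient, -3.68 ± 0.37 in Eed deficient, -3.73 ± 0.69 in Ring1B deficient and -3.76 ± 0.44 in wild type cells (SD, n = 3). Against Tssc4 the double deficient arrays did not stand apart: they gave 0.32, 0.33 and -0.07, and the highest wild type array gave 0.12. Against Cdkn1c the lowest double deficient array, at -0.95, lay within the wild type range of -1.32 to -0.75.

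**Figure D4:**
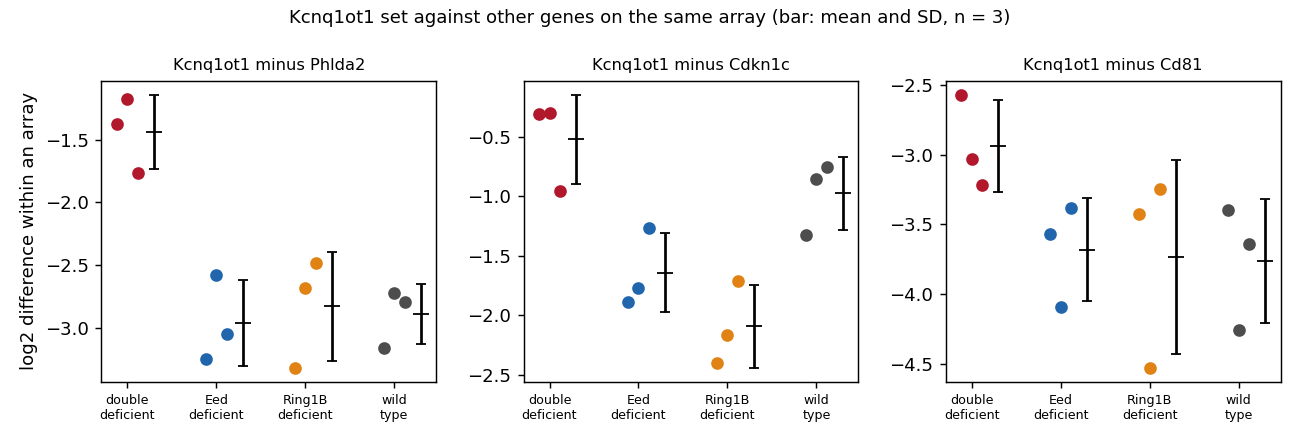
Log2 signal of Kcnq1ot1 minus that of Phlda2, Cdkn1c or Cd81 on the same array, by genotype, with each array as a point and the mean and SD of 3 arrays as a bar. Against Phlda2 the double deficient arrays (-1.76 to -1.18) lie above all others (-3.32 to -2.48), and against Cdkn1c the Ring1B deficient arrays average -2.09 and the wild type arrays -0.97.

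Part of the spread within a genotype followed the replicate number in the labels. Cd81 was highest in replicate 2 in 4 of 4 genotypes, at 1578, 1684, 1968 and 1881 in double deficient, Eed deficient, Ring1B deficient and wild type cells. Phlda2 was lowest in replicate 2 in 4 of 4 genotypes, and so were the Ascl2 probe sets 1460514_s_at and 1432018_at. On the log2 scale, replicate 2 minus the mean of replicates 1 and 3 was -0.69, -0.87, -1.03 and -1.03 for the brightest Ascl2 probe set in the same order. Of all tested probe sets, 9.47% were highest and 8.95% lowest in replicate 2 in every genotype. What the replicate number stands for is not given in the sources used here. With replicates 1 and 3 only, chosen after seeing the data, 3 member probe sets were called in double deficient against wild type cells. They were 1 each of Kcnq1ot1 (1442029_at), Kcnq1 and Phlda2, beside 21.8% of all probe sets. The brightest Kcnq1ot1 probe set, 1457781_at, lost its call there (adjusted p = 0.0561), as did Slc22a18 probe set 1417809_at (0.13). Against Ring1B deficient cells no Kcnq1ot1 probe set was called, with 0.167 for 1457781_at and 0.0698 for 1458161_at. Cdkn1c was still called in Ring1B deficient cells against wild type.

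**Figure D5:**
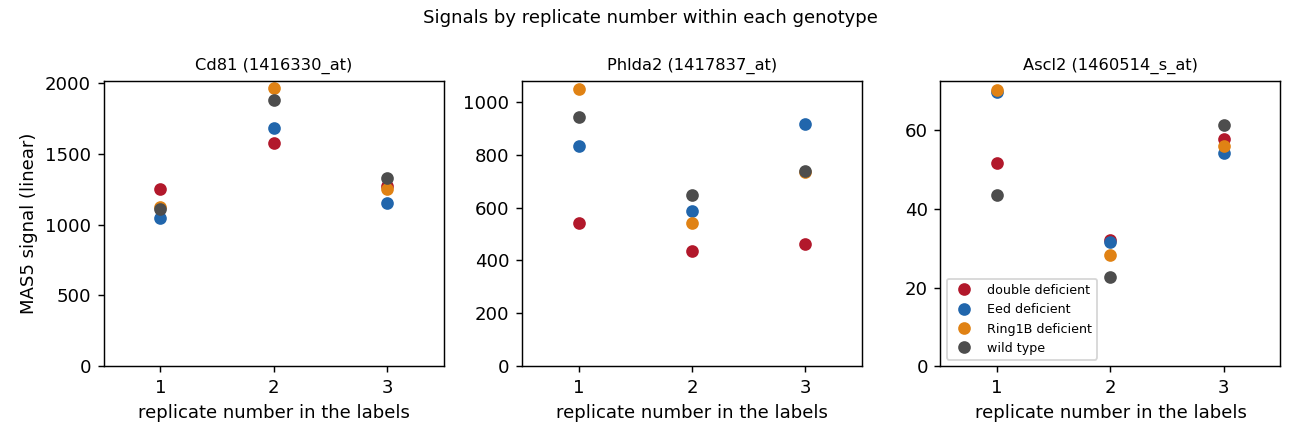
MAS5 signal of the brightest Cd81, Phlda2 and Ascl2 probe sets by replicate number, with each genotype as a colour. Replicate 2 is the highest array of its genotype for Cd81 (1578 to 1968) and the lowest for Phlda2 (434 to 646) and Ascl2 (22.8 to 32.1).

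Markers of other cell types moved with genotype and stand beside these results. Counted with 1 probe set per gene, 30.8%, 15.3% and 7.19% of all genes were called either way in double, Eed and Ring1B deficient cells against wild type. Of 12 primitive and visceral endoderm markers, 11 rose in double deficient, 11 in Eed deficient and 10 in Ring1B deficient cells, and their summed signal ran from 6366 to 7169, 3837 to 6667 and 3049 to 4169, against 359 to 449 in wild type cells. Of these markers, Foxa2, Sox7, Ttr and Afp were dim in every wild type array and passed the filter only through the mutants. Of 8 trophoblast markers tested, 7, 7 and 3 rose, and the summed signal over the 10 on the array ran from 4789 to 7858 in double deficient, 3652 to 6189 in Eed deficient, 1467 to 3062 in Ring1B deficient and 674 to 1404 in wild type cells, with Elf5 below the 40th percentile on all arrays. In double deficient cells this sum mainly followed the keratins Krt8 and Krt18, which averaged 2272 and 2952. Cdx2, Hand1 and Eomes averaged 37.5, 52.8 and 90.9 there. Of 12 fibroblast or feeder cell markers, 10, 3 and 0 rose, and the summed signal ran from 6499 to 6829, 2999 to 6642, 1826 to 2642 and 2781 to 3287 in the same order. The highest Eed deficient sum belongs to replicate 3 and the lowest Ring1B deficient sum to replicate 3, and each of these arrays had the highest Kcnq1ot1 signal of its genotype on the 3 brighter probe sets. The part of these cell types in the changes of the domain was not tested, and in these bulk samples a change in the number of cells of a type and a change in RNA per cell cannot be told apart.

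Of 16 gene symbols listed as neighbours, 11 had a tested probe set. Most lie around the domain, while Tspan32 and Trpm5 lie between its members. The 11 were counted as genes, by the brightest tested probe set of each. In double deficient cells 3 rose and 1 fell against wild type. With 1 probe set per gene 30.8% were called either way in that contrast, and 23.9% of all probe sets. The median log2 change of the 11 was 0.12. Igf2, an imprinted growth factor gene on the far side of Ascl2, averaged 1569.6 ± 693 in double deficient, 1089.5 ± 390.3 in Eed deficient, 214 ± 66.9 in Ring1B deficient and 103 ± 65.5 in wild type cells (SD, n = 3). Tnfrsf23, a decoy receptor gene beyond Phlda2, rose to 38.0 ± 5.79 in double deficient cells, against 15.1 ± 3.48 in wild type (log2 change 1.10, adjusted p = 0.00348), and Cars, which encodes cysteinyl-tRNA synthetase, fell to 136 ± 12, against 294 ± 88.1 (-1.05, adjusted p = 0.00765). Th, the tyrosine hydroxylase gene, had 18.7 ± 4.39 in double deficient and 8.86 ± 1.39 in wild type cells (0.76, adjusted p = 0.0469). It was dim, with 6 of 12 arrays above the 40th percentile and wild type signals of 7.26, 9.72 and 9.61. Th thus passed the filter only through the mutants, and its change is poorly measured. In Eed deficient cells only Igf2 of the 11 was called, beside 15.3% with 1 probe set per gene. In Ring1B deficient cells limma called 0 of them, beside 7.19%.

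The Airn domain of chromosome 17 is the most similar case, since the noncoding RNA Airn also silences neighbours on the paternal copy. Airn averaged 34.9 ± 8.92 in double deficient, 32.8 ± 12.5 in Eed deficient, 16.0 ± 1.69 in Ring1B deficient and 11.6 ± 1.69 in wild type cells (SD, n = 3), with log2 changes against wild type of 1.24 and 1.13 in double and Eed deficient cells (adjusted p = 0.00318 and 0.0123). Airn was dim in wild type cells, at 9.72, 12.9 and 12.4, and only 9 of 12 arrays lay above the 40th percentile, so these changes are poorly measured. Kcnq1ot1 had -0.07 in Eed deficient cells. Whether the 2 noncoding RNAs differed in that change was not tested. Igf2r, which is antisense to Airn, rose as well, with 1.31 and 0.83 (adjusted p = 0.000242 and 0.0127).

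The patterns most like those of the 2 members with the largest range of genotype means, judged on the brightest probe set of each gene, were searched among the 13983 other genes with a tested probe set, by the root mean square difference of log2 values over the 12 arrays after centring each gene. For Cdkn1c the closest were Elk4, Liph, Gcnt3, Rbbp5 and Timm21, at 0.26 to 0.27. Elk4, for example, averaged 78.1 ± 11.4 in double deficient, 72.9 ± 4.69 in Eed deficient, 105 ± 15.2 in Ring1B deficient and 50.1 ± 1.99 in wild type cells (SD, n = 3). For Kcnq1ot1 they were Chm, Spata17, Zfp81, Dclk1 and Reln, at 0.18 to 0.20. Among the members, Tssc4 came closest to Kcnq1ot1, at 0.28 and rank 104, while Phlda2 had 0.69 and rank 12389.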

How the data were processed

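Total RNA of 12 mouse ES cell samples, 3 per genotype, was hybridised to Affymetrix mouse arrays, 1 array per sample; a commercial laboratory labelled it, per the labels' protocols. The deposited values are intensity values made by the authors with MAS5, per the submitters' processing notes; version and settings: not given in the sources used here. Arrays already had a trimmed mean of 100 (2% left off each end) and medians from 19.07 to 28.01, so no further normalization was applied. Of 45101 probe sets, 64 controls were left out. Symbols came from the platform annotation, and genes were named only from the 34945 probe sets with 1 symbol. The filter on dim signals required a signal above the array's own 40th percentile on 3 or more of 12 arrays (30027 probe sets passed). Signals were analysed as log2(signal + 5), on which changes of dim genes are understated.

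Genotype means were estimated from all 12 arrays, for every probe set that passed, with limma 3.58.1 in R 4.3.3 (empirical Bayes with an intensity trend, 2-sided). Adjusted p values are Benjamini-Hochberg values over the 30027 probe sets from this fit, and a probe set was called under 0.05. The fit was tested on simulated data with the spread of these arrays, for Ring1B deficient against wild type cells. It recovered 42 of 100 probe sets with a true log2 change of 1 and 87 of 100 with a change of 2. Changes of 1 or less can therefore go uncalled. Precision is limited by how few arrays there are. The members, lists and tests were chosen with earlier results of these data known. Named genes are all members with every probe set, the targeted genes, the called genes of the neighbour and Airn lists, and the 5 genes closest in pattern to each of 2 members. Pou5f1 was named from the ES cell markers. Alternatives were an added value of 1 or 32, quantile normalization, median centring, no filter or a filter at the 60th percentile, 1 probe set per gene, a replicate block, no intensity trend, leaving out each array, and replicates 1 and 3 only.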

Additional observations from a re-analysis of the deposited data

Results flagged for a closer look

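Cdkn1c stood out because the change that goes with Ring1B loss differed between the 2 backgrounds by a test of the difference itself. Double deficient minus Eed deficient cells gave -0.28 in log2 and Ring1B deficient minus wild type cells gave 1.15, and the interaction was -1.42 (SE 0.26, limma adjusted p = 0.0171). Over the 22 alternatives it ran from -1.61 to -1.27, with adjusted p from 0.000825 to 0.0813. Of the endoderm markers, 8 of 12 were also called lower in the same interaction, beside 1.9% called either way with 1 probe set per gene. The part of these markers in the Cdkn1c result was not tested.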

How the results depend on the processing

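No called result changed direction under the alternatives that gave it a value, which were 20 to 22 for each, since 1 probe set per gene or the filter at the 60th percentile left out some dim probe sets. Cdkn1c in Ring1B deficient cells against wild type was called under all 22 (adjusted p from 7.93e-05 to 0.0132). The member counts moved as follows. With 1 probe set per gene, 2 were called in double deficient against wild type cells and 2 against Ring1B deficient cells, where fewer probe sets were tested. Double deficient against Eed deficient cells had 1 call with an added value of 32, with median centring, with the filter at the 60th percentile and with 1 probe set per gene. Eed deficient against wild type cells had 1 (Cdkn1c) with that filter, with 1 probe set per gene and with the replicate block. With replicates 1 and 3 only, chosen after seeing the data, the interaction had 0 calls. Leaving out each array gave 1 to 1 calls for Ring1B deficient and 0 to 1 for Eed deficient cells against wild type, 0 to 5 for double deficient cells against wild type, 0 to 2 against Eed deficient and 2 to 5 against Ring1B deficient cells, 0 to 0 for Eed deficient against Ring1B deficient cells and 0 to 2 for the interaction. The lowest count of 0 against wild type came without double deficient replicate 1. The Phlda2 call against wild type was also lost with quantile normalization (0.0696), no filter (0.0645) and no intensity trend (0.0702). The cause was not tested.

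Same-numbered samples correlated by -0.061 to 0.552 in their deviations from the genotype means, over 0.1 in 14 of 18 pairs (median 0.228), against 8 of 36 differently numbered pairs (median -0.149). Of 12 arrays, 7 correlated best with their own number in all other genotypes, a hint of shared structure in the data. A pairing was to be assumed only where every same-numbered pair exceeded 0.1, and it was not. With the replicate block, 5 member probe sets were called in double deficient against Eed deficient cells (3 of Kcnq1ot1 with adjusted p of 0.0156, 0.0183 and 0.0102, Phlda2 with 0.00751 and Slc22a18 with 0.0256), 6 against wild type, 6 against Ring1B deficient cells, 1 in Eed deficient against Ring1B deficient cells and 3 in the interaction. Over all probe sets the block gave 3192 calls against 1350 without it in Ring1B deficient and 5999 against 3238 in Eed deficient cells against wild type, 10266 against 7173 in double deficient cells against wild type, 1950 against 383 in double against Eed deficient, 7153 against 4109 in double against Ring1B deficient and 2481 against 853 in Eed against Ring1B deficient cells, and 1688 against 314 in the interaction. Double against Eed deficient cells had 602 with an added value of 32 and 605 with median centring. Dim probe sets such as 1417809_at and 1441588_at limit what can be measured.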
